A study of Mus musculus with 24 samples.

Results

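The 9 genes described here are used as markers of the epithelium of the pancreatic ducts, although some occur in other cells too. The genes are Krt19, Krt7, Krt8, Krt18, Sox9, Spp1, Muc1, Cftr and Epcam. They were taken by gene symbol from the 41549 genes of a table of mRNA sequencing of dispersed mouse islet cells, whatever their values, and all 9 held enough counts to be tested. The study transfected the islet cells with an antisense oligonucleotide (ASO) and then exposed them for 48 h to palmitate (PA), a saturated fatty acid, or to its carrier. The table covers 24 libraries of wild-type cells in 4 groups of 6. The cells called Ctr BSA had the control ASO and bovine serum albumin, and those called Ctr PA the control ASO and 0.5 mM PA complexed to albumin. In the groups αGlu BSA and αGlu PA the control was replaced by the ASO against the fragment from the 5′ end of the glutamate tRNA with the CTC anticodon. The labels assign 3 libraries of each group to batch 1 (numbered S1 to S12) and 3 to batch 2 (S13 to S24), without saying what a batch was. The study's methods name C57BL/6NRj mice of both sexes, aged 12 to 14 weeks, as the source of wild-type islets, which were freed by collagenase, purified on a density gradient and picked by hand. All groups were transfected, so none shows islet cells without an ASO.

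The duct system of the pancreas carries the digestive juice of the acinar cells to the gut, and its cells secrete bicarbonate and fluid along the way. Keratins are the intermediate filament proteins of epithelia and work as pairs of a type II keratin (here Krt7 and Krt8) with a type I keratin (here Krt18 and Krt19). Krt7 and Krt19 are the keratins by which ducts are usually recognised, whereas Krt8 and Krt18 occur in simple epithelia at large, islet cells included. Sox9 is the transcription factor of ductal and progenitor cells, Cftr the chloride and bicarbonate channel of the duct surface, Muc1 a mucin of the same surface, Spp1 the secreted phosphoprotein osteopontin, and Epcam an adhesion molecule of epithelial cells in general. Ducts run close to islets, and islet preparations can carry pieces of them.

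The sequences of the αGlu ASO and of the 21 bases of the fragment it was designed against are shown because they define the treatment of 2 of the 4 groups. The study reports longer fragments in islet cells, so the second line is a part of them. Capitals mark the 20 bases that pair with the ASO, and both lines are written in DNA letters from 5′ to 3′.
αGlu ASO: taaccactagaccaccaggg
target fragment: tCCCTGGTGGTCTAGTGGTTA

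The 9 genes lie on 6 chromosomes of the GRCm38 build. Krt19 (chr11:100140810-100148665, minus strand) and Sox9 (chr11:112782224-112787760, plus strand) share chromosome 11. Krt7 (chr15:101411043-101430313, plus strand), Krt8 (chr15:101996698-102004482, minus strand) and Krt18 (chr15:102028180-102032027, plus strand) lie in the type II keratin cluster of chromosome 15, where Krt18 is the one type I keratin. Krt8 and Krt18 are neighbours that point away from each other, with 23697 bases between them. Spp1 (chr5:104435118-104441050), Muc1 (chr3:89229057-89233381), Cftr (chr6:18170687-18322768) and Epcam (chr17:87635979-87651129) are all on the plus strand. The exons of Cftr and Krt7 cover the most sequence (7765 and 7049 bases) and those of Krt18 the least (1437 bases), so the order of the 9 genes is given per length, as TPM. The CPM values given below for other genes are not corrected for length and set no order between genes of different lists. GENCODE also has antisense or non-coding genes across parts of Krt7, Krt8, Spp1 and Cftr. Those with a row in the table held between 0 and 515 counts over all libraries, against at least 860 for the ductal gene they overlap. Krt8 has a processed pseudogene as well, and counts shared with a near-identical copy cannot be told apart.

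The stretches upstream of 3 keratin genes are shown because Krt8 and Krt18 were lower in batch 2 by nearly equal amounts while Krt7, of the same cluster, did not pass between batches, as described below. Each line gives the 110 bases before the 5′ untranslated region that GENCODE marks, on the strand of the gene (for Krt7, the transcript that starts where RefSeq has it, since GENCODE has other transcripts starting further upstream), from the RefSeq promoter table for GRCm38.p6; capitals mark GGGCGG, the GC box, read on either strand.
Krt8, chr15:102004483-102004592, minus strand: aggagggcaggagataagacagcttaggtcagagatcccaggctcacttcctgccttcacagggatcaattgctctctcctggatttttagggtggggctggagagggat
Krt18, chr15:102028070-102028179, plus strand: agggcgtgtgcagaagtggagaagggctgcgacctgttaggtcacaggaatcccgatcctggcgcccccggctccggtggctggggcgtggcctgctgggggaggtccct
Krt7, chr15:101412292-101412401, plus strand: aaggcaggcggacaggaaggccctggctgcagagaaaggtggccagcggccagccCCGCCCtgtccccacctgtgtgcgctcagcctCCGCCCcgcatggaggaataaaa
Between the printed stretch and the RefSeq start lie 140 bases for Krt8, 36 for Krt18 and 1 for Krt7, so the 3 stretches are not at like positions. The RefSeq table held promoters of 7 of the 9 genes, each of 300 bases from 250 before to 50 after the start, with 2 for Spp1. GGGCGG was found 4 times in the promoter of Krt7, 6 times in that of Cftr, 2 times in that of Muc1 and 1 time in that of Epcam, and it occurs in 35.7% of all 32851 promoters of this length. It was not found in those of Krt8, Krt18 and Spp1. TATAAA, the letters of the TATA box, was found in Krt8 (2 overlapping matches, 1 on each strand), in Muc1 and in 1 promoter of Spp1, against 13.6% of all promoters. The matches in Krt8 begin 3 and 1 bases before the RefSeq start, outside the printed stretch. AACAAT and TGANTCA, searched on both strands as well, were in none of the 8 windows and are in 10.7% and 7.81% of all promoters. These matches describe letters in a window and no binding was measured. Whether they bear on the difference between batches was not tested.

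Each library held between 18214719 and 35001979 counts, of which Cftr took 0 to 138. Levels within a gene are given as CPM (counts scaled to a common library size) with library sizes corrected by the trimmed mean of M values. Library S1 (Ctr BSA, batch 1) stood apart: its scaling factor was 0.852 against 0.938 to 1.06 in the other libraries, and 15.9% of its counts lay on 1 gene, CT010467.1, against 0.549% to 3.47% elsewhere. Changes are log2 fold changes from a quasi-likelihood fit in edgeR with a term for batch, and a gene passed at an adjusted p below 0.05 over all 15916 genes tested. The medians of all genes tested were near 0 in every comparison (between −0.01 and 0.01 on the log2 scale). In RNA from bulk cells, fewer cells of a type and less RNA per cell cannot be told apart.

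Insulin and glucagon transcripts, which define islets, were present in quantity: Ins2 averaged 58191 CPM, Ins1 28684 CPM and Gcg 15428 CPM over the 24 libraries. All 9 ductal genes had counts in every library except for Cftr in S23. The summed level of the 9 genes ranged from 1688 to 2862 CPM in batch 1 and from 592 to 1343 CPM in batch 2, without overlap. On the TPM scale, Krt18 and Krt8 led in both batches. In batch 1, Krt18 had a median of 1458 TPM (869 to 1888 over 12 libraries) and Krt8 of 1419 TPM (863 to 1793), ranges that overlap almost fully. Krt19 followed at 249.7 TPM (134 to 339) and Epcam at 209 TPM (142 to 222), also overlapping, ahead of Krt7 at 92.8 TPM and Spp1 at 75.4 TPM. The lowest TPM of Krt18, Krt8 and Epcam in this batch was that of S1, the library that stood apart. On the CPM scale S1 was not the lowest for these genes. Muc1 had 12.2 TPM, Sox9 3.82 TPM and Cftr 0.899 TPM. The order differed in batch 2, where Epcam (170.4 TPM), Krt7 (95.3 TPM) and Spp1 (89.0 TPM) stood above Krt19 (25.5 TPM, 5.38 to 49.0), again behind Krt18 (411 TPM) and Krt8 (398 TPM). Muc1 (2.70 TPM), Sox9 (2.45 TPM) and Cftr (0.131 TPM) closed the order in that batch, and the ranges of Muc1 and Sox9 overlapped in both batches.

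**Figure D1:**
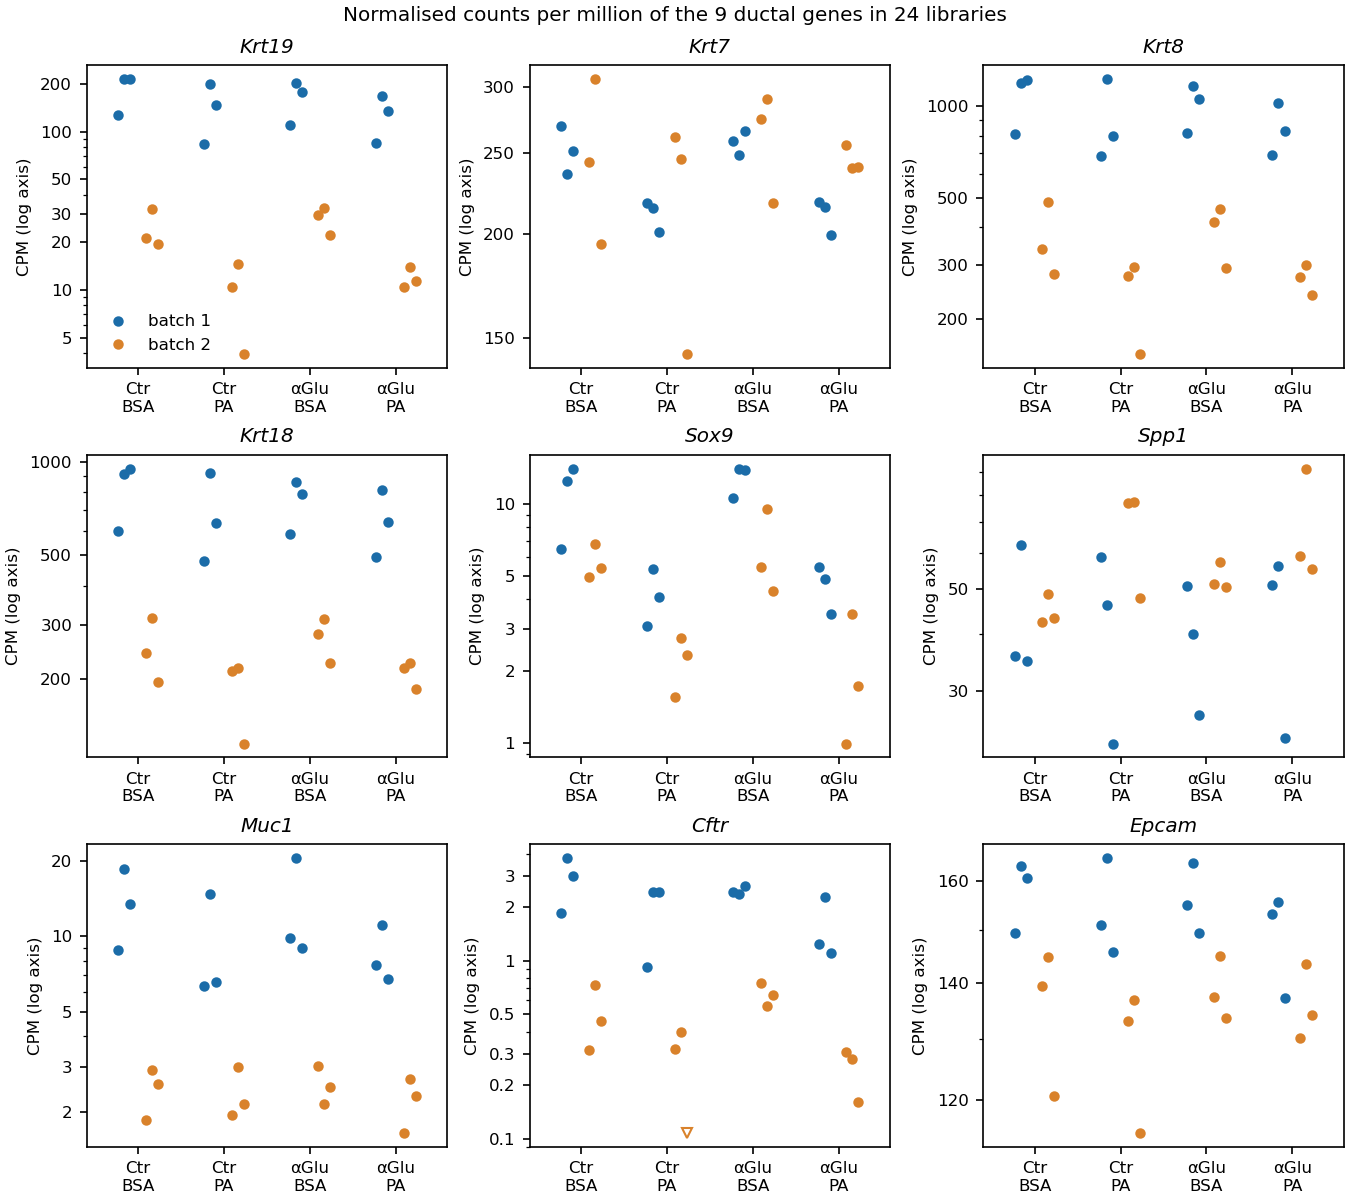
CPM of each of the 9 genes on a log axis, 1 point per library, by group and coloured by batch; the open triangle in the Cftr panel marks library S23, which had 0 counts, at the level of 3 counts. Krt19, Krt8, Krt18, Muc1 and Cftr of batch 2 lie below every library of batch 1, and Sox9 is lower with PA than with BSA in both batches under either ASO.

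The first comparison asked what PA did to these genes in cells with the control ASO. Sox9 fell to 0.378 times its mean level in batch 1 and to 0.387 times in batch 2, and Krt19 fell as well. Spp1 alone had a positive value, which did not pass. Of the 9 genes, 2 passed as lower and 0 as higher, while 14.5% of all genes tested passed as lower and 15.5% as higher. The median of the 9 was −0.35 on the log2 scale, against 0.01 over all genes tested.

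Sox9 showed the clearest response. In Ctr BSA its level was 6.44, 12.48 and 14.04 CPM in batch 1 and 4.94, 6.80 and 5.37 CPM in batch 2. In Ctr PA it was 3.08, 5.32 and 4.07 CPM in batch 1 and 1.55, 2.74 and 2.33 CPM in batch 2. Within each batch all 3 PA libraries lay below all 3 BSA libraries, whereas across batches the groups overlapped. The log2 fold change was −1.39 ± 0.24 (SE, edgeR quasi-likelihood test, adjusted p = 0.000127). It stayed between −1.51 and −1.31 and past the threshold in all 24 fits that left out 1 library.

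Krt19, the keratin used to trace ducts, was lower by a smaller amount. Its level in Ctr BSA was 128, 214 and 215 CPM in batch 1 and 21.3, 32.2 and 19.4 CPM in batch 2. In Ctr PA it was 83.7, 199 and 146 CPM in batch 1 and 10.4, 14.6 and 3.94 CPM in batch 2. The groups overlapped in batch 1 but not in batch 2. The log2 fold change was −0.76 ± 0.28 (SE, edgeR, adjusted p = 0.0398), just inside the threshold. It no longer passed when any 1 of S3, S5, S9, S13, S15, S17 or S23 was left out, with a range of −1.01 to −0.58 over all such fits, and without the batch term (−0.46, adjusted p = 0.772) or with only the Ctr libraries (−0.81, adjusted p = 0.0670). In that last fit Sox9 was the 1 member that passed as lower, where 10.3% of all genes tested did. In the fit of all 4 groups without S1, the library that stood apart, the log2 fold change of Krt19 was −0.88 (edgeR, adjusted p = 0.0216).

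The other keratins had the same sign without passing. Krt8 had a log2 fold change of −0.42 ± 0.18 (edgeR, adjusted p = 0.0762), the type I keratin Krt18 of −0.35 ± 0.17 (adjusted p = 0.121), and Krt7 of −0.23 ± 0.11 (adjusted p = 0.126). Krt8 passed when S1 (−0.50, adjusted p = 0.0388) or S7 (−0.58, adjusted p = 0.0129) was left out, Krt18 without S7 (−0.50, adjusted p = 0.0245) and Krt7 without S21 (−0.30, adjusted p = 0.0382). Krt7 differed from the others in how its libraries fell. In batch 1 its BSA libraries (269, 236 and 251 CPM) all lay above its PA libraries (218, 215 and 201 CPM), but in batch 2 the groups overlapped widely (194 to 306 CPM with BSA and 143 to 261 CPM with PA).

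Of the genes of the duct surface, Cftr went from 1.87, 3.79 and 3.01 CPM in Ctr BSA to 0.921, 2.44 and 2.43 CPM in Ctr PA in batch 1. In batch 2 it went from 0.316, 0.735 and 0.460 CPM to 0.317, 0.397 and 0 CPM, where the 0 of library S23 allows a level of up to 0.107 CPM (3 counts, counting error only). These groups overlapped in both batches, and the log2 fold change of −0.75 ± 0.37 did not pass (edgeR, adjusted p = 0.133). Muc1 had −0.35 ± 0.25 (adjusted p = 0.305), and the secreted Spp1 had a positive value of 0.25 ± 0.23 (adjusted p = 0.429). Epcam varied least among the 9: its log2 fold change was −0.05, with a 95% interval of −0.17 to 0.06.

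The second comparison put the same question to cells with the αGlu ASO and gave the same pair of calls. Sox9 and Krt19 passed as lower and 0 members passed as higher, where 14.2% of all genes passed as lower and 14.4% as higher. The median of the 9 was −0.39, against 0.01 over all genes tested. Sox9 was 10.6, 14.0003 and 13.9 CPM in αGlu BSA and 5.43, 4.82 and 3.44 CPM in αGlu PA in batch 1. In batch 2 it was 5.44, 9.49 and 4.30 CPM with BSA and 0.992, 3.46 and 1.73 CPM with PA. The groups again did not overlap within either batch, and the log2 fold change was −1.55 ± 0.24 (edgeR, adjusted p = 3.49e-05).

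Krt19 in αGlu BSA was 110, 201 and 179 CPM in batch 1 and 29.9, 32.9 and 22.3 CPM in batch 2. In αGlu PA it was 84.3, 168 and 134 CPM in batch 1 and 10.5, 13.999 and 11.3 CPM in batch 2. As with the control ASO, the groups overlapped in batch 1 and were apart in batch 2. The log2 fold change was −0.78 ± 0.28 (edgeR, adjusted p = 0.0376). It no longer passed when any 1 of S4, S6, S14, S16, S18, S20 or S24 was left out (range −0.94 to −0.66) or without the batch term (−0.45, adjusted p = 0.795).

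Cftr in αGlu cells was 2.43, 2.38 and 2.65 CPM with BSA and 1.25, 2.28 and 1.11 CPM with PA in batch 1. In batch 2 it was 0.749, 0.556 and 0.638 CPM with BSA and 0.305, 0.280 and 0.161 CPM with PA. All PA libraries lay below all BSA libraries of their batch, yet the log2 fold change of −0.98 ± 0.38 had an adjusted p of 0.0558 in edgeR, and it passed in DESeq2 (−0.998, adjusted p = 0.0189) and in edgeR without S8 (−1.20, adjusted p = 0.0343) or S23 (−0.96, adjusted p = 0.0116). Krt8 (−0.39 ± 0.18, adjusted p = 0.101), Krt18 (−0.30 ± 0.17, adjusted p = 0.204), Krt7 (−0.19 ± 0.11, adjusted p = 0.219) and Muc1 (−0.44 ± 0.25, adjusted p = 0.191) did not pass in edgeR, nor did Spp1 (0.27 ± 0.23, adjusted p = 0.404) and Epcam (−0.05 ± 0.05, adjusted p = 0.552). In a fit of the αGlu libraries alone, Krt7, Krt8 and Cftr passed as lower beside Sox9 and Krt19, where 17.2% of all genes tested passed as lower.

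Both PA comparisons drew on 6 BSA and 6 PA libraries, and the average over both ASOs, added after the values were seen, uses all 24. There 6 of the 9 genes passed as lower, where 22% of all genes tested did. They were Sox9 (−1.47 ± 0.17, edgeR adjusted p = 2.02e-07), Krt19 (−0.77 ± 0.20, adjusted p = 0.00255), Cftr (−0.87 ± 0.27, adjusted p = 0.0103), Krt8 (−0.41 ± 0.13, adjusted p = 0.0104), Krt18 (−0.32 ± 0.12, adjusted p = 0.0309) and Krt7 (−0.21 ± 0.08, adjusted p = 0.0342). Muc1 (−0.40 ± 0.18, adjusted p = 0.0689), Epcam (−0.05 ± 0.04, adjusted p = 0.291) and Spp1 (0.26 ± 0.16, adjusted p = 0.192) did not pass. All 4 keratins among the 9 thus passed as lower on this average, Krt7 with the smallest value and Krt19 with the largest.

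**Figure D2:**
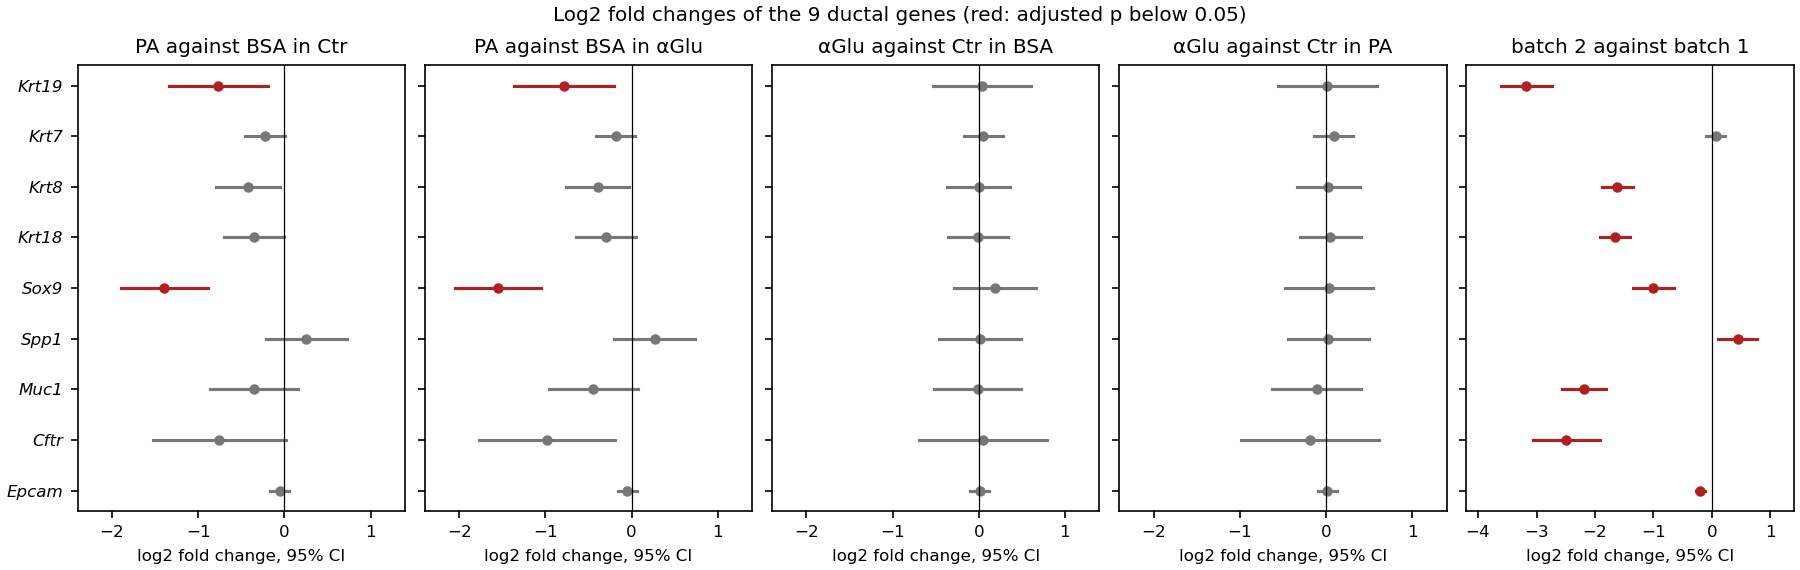
Log2 fold change (point) with its 95% confidence interval (line) of each gene in 5 comparisons from 1 edgeR fit, in red where the adjusted p was below 0.05; the axis of the batch panel is longer. With PA, Sox9 and Krt19 are red in both panels, the panels of αGlu against Ctr have no red point, and 8 of 9 genes are red between batches.

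Further comparisons asked whether the αGlu ASO itself altered the ductal genes, in BSA and in PA. None of the 9 genes passed in edgeR or in DESeq2 in either, and 0 had an unadjusted p below 0.05 in either tool. Over all genes tested 0% passed in edgeR in both comparisons, with 461 genes in BSA and 538 in PA at an unadjusted p below 0.05, and DESeq2 passed 8 and 30 genes. The log2 fold changes of the 9 ran from −0.01 (Muc1) to 0.19 (Sox9) in BSA and from −0.19 (Cftr) to 0.09 (Krt7) in PA. The 95% interval of Krt19 was −0.53 to 0.60 in BSA and −0.56 to 0.59 in PA, and that of Sox9 was −0.29 to 0.67 and −0.48 to 0.55. For Epcam, the most precise, it was −0.10 to 0.12 and −0.10 to 0.13, and for Cftr, the least precise, −0.70 to 0.79 and −0.98 to 0.61. Changes inside these intervals were not detectable with 6 libraries a group.

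Whether PA acted differently under the αGlu ASO was tested as an interaction. None of the 9 genes passed in edgeR or DESeq2, 0 had an unadjusted p below 0.05, and 0% of all genes tested passed in edgeR, with 332 at an unadjusted p below 0.05 and 0 passing in DESeq2. The difference of the PA effects, αGlu minus Ctr, was −0.15 for Sox9 (95% interval −0.86 to 0.55), −0.02 for Krt19 (−0.83 to 0.79) and −0.23 for Cftr (−1.33 to 0.87).

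The largest differences in these genes lay between the batches, with groups held equal. Libraries of the same animal were treated as independent here, so the p-values of this comparison may be too small. Of the 9 genes, 7 passed as lower in batch 2 and 1 as higher, where 25.4% of all genes tested passed as lower and 26.1% as higher. The median of the 9 was −1.62, against 0.00 over all genes. Krt19 was lowest, with a log2 fold change of −3.17 ± 0.21 (edgeR, adjusted p = 1.08e-11): its 12 libraries of batch 1 had a median of 157 CPM (83.7 to 215) and those of batch 2 of 16.97 CPM (3.94 to 32.9). Cftr followed at −2.49 ± 0.28 (adjusted p = 5.04e-08), from a median of 2.41 to 0.357 CPM, and Muc1 at −2.19 ± 0.18 (adjusted p = 3.70e-10), from 9.43 to 2.40 CPM. Krt18 (−1.66 ± 0.12, adjusted p = 7.11e-11) and Krt8 (−1.62 ± 0.13, adjusted p = 2.12e-10) differed by nearly equal amounts. In these 5 genes every library of batch 2 lay below every library of batch 1. How many of all genes tested did so was not counted, so this is a description of their levels only.

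Sox9 was also lower in batch 2 (−1.001 ± 0.17, edgeR adjusted p = 2.60e-05), but its batches overlapped (3.08 to 14.04 and 0.992 to 9.49 CPM), as did those of the remaining genes. Epcam was lower by a small amount (−0.20 ± 0.04, adjusted p = 0.000135). Spp1 was the gene that was higher (0.44 ± 0.16, adjusted p = 0.0247), which did not pass without S20 (0.37, adjusted p = 0.0546). Krt7, although a ductal keratin, did not pass (0.06, 95% interval −0.10 to 0.22), with medians of 227 CPM in batch 1 and 245 CPM in batch 2. The genes used as ductal markers therefore did not differ between batches by a common factor.

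The keratin pairs show the same unevenness. Together, Krt7, Krt8, Krt18 and Krt19 held between 94.3% and 97.6% of the TPM of all 49 numbered keratin genes in every library. The ratio of Krt8 to Krt18 TPM was 0.982 in the median of batch 1 and 0.983 in that of batch 2, and between 0.902 and 1.13 in all 24 libraries. The share of Krt19 in the type I pair of Krt18 and Krt19 was 14.3% in the median of batch 1 (11.7% to 15.4%) and 5.64% in that of batch 2 (2.39% to 7.64%). In batch 2 it was 7.09% in Ctr BSA and 3.64% in Ctr PA, and 7.51% in αGlu BSA and 4.50% in αGlu PA, as medians of 3 libraries that did not overlap between BSA and PA. The share of Krt7 in Krt7 and Krt8 went the other way, with a median of 6.40% in batch 1 and 17.7% in batch 2. In batch 2 its medians were 16.1% with BSA and 20.7% with PA in Ctr cells, and 15.5% with BSA and 20.6% with PA in αGlu cells. In batch 1 the Krt19 share overlapped between Ctr BSA (14.2% to 15.4%) and Ctr PA (11.9% to 15.1%). So did the Krt7 share in batch 1 (5.20% to 8.48% and 4.63% to 8.09%). Both shares also overlapped between αGlu BSA and αGlu PA in that batch. No test was made of these shares, which restate the levels given above as proportions.

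**Figure D3:**
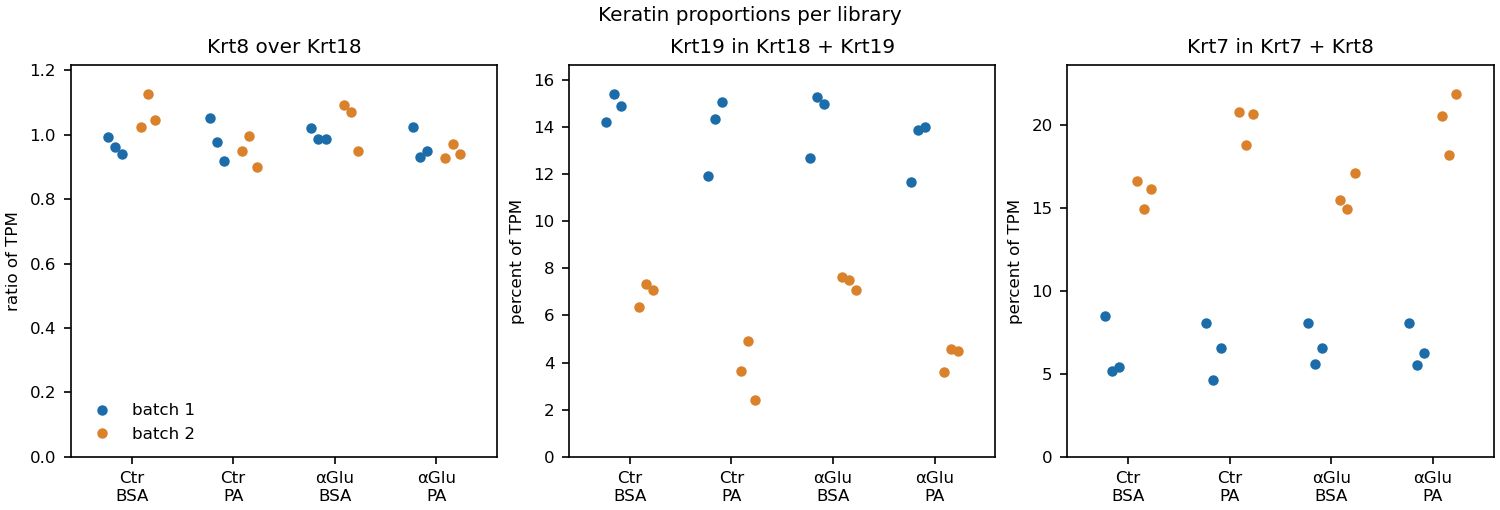
Ratio of Krt8 to Krt18 TPM and the percentage of Krt19 in Krt18 plus Krt19 TPM and of Krt7 in Krt7 plus Krt8 TPM, 1 point per library, by group and batch. The ratio stays between 0.902 and 1.13, whereas the shares of the 12 libraries of batch 1 and the 12 of batch 2 do not overlap.

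Since the batches differed so much, the PA effect was also fitted within each batch, averaged over both ASOs. Sox9 had −1.45 ± 0.25 in batch 1 (edgeR, adjusted p = 0.000169) and −1.50 ± 0.27 in batch 2 (adjusted p = 0.000266). Krt19 had −0.36 ± 0.24 in batch 1 (adjusted p = 0.279) and −1.29 ± 0.27 in batch 2 (adjusted p = 0.00122). The difference between batches was −0.93 ± 0.36 for Krt19, with an unadjusted p of 0.0173 that did not pass over all genes (edgeR, adjusted p = 0.660). In batch 1, Sox9 was the 1 member that passed, where 30.7% of all genes passed in either direction. In batch 2, Sox9, Krt19, Krt8 (−0.57 ± 0.18, adjusted p = 0.0244) and Cftr (−1.21 ± 0.44, adjusted p = 0.0455) passed, where 26.4% of all genes did. The test of the difference between batches passed for 0 of the 9 in edgeR, with 1 of them at an unadjusted p below 0.05, and for 0.0565% of all genes (9 genes). DESeq2 was not run on this difference. With each batch fitted alone, the counts of members that passed were 2 in each PA comparison: Krt7 and Sox9 in batch 1, and Krt19 and Sox9 in batch 2. Of all genes tested, 6.06% (Ctr) and 5.22% (αGlu) passed as lower in batch 1 alone, and 5.63% and 6.11% in batch 2 alone.

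**Figure D4:**
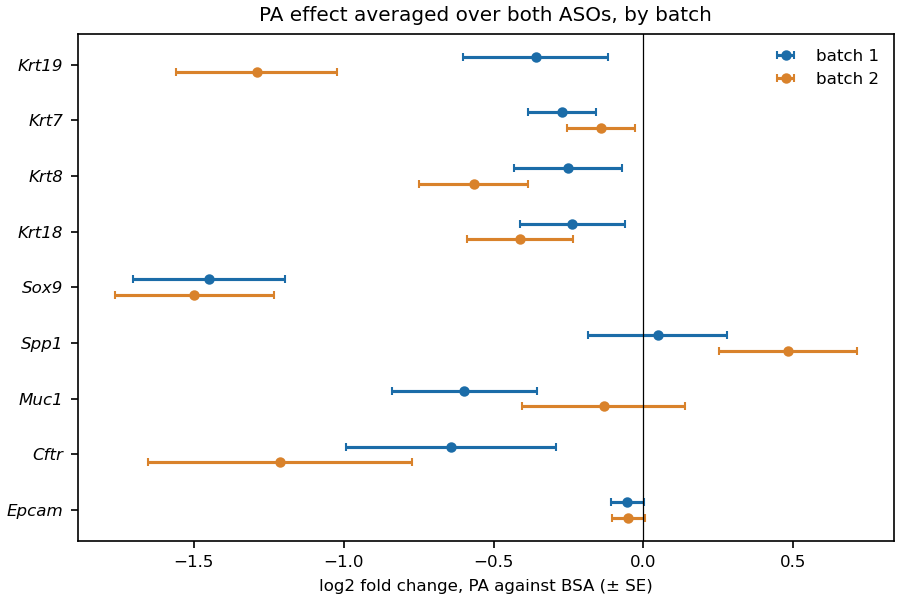
PA effect on each gene as a log2 fold change with its SE, averaged over both ASOs and fitted within batch 1 and batch 2. Sox9 lies at −1.45 and −1.50 in the 2 batches, Krt19 at −0.36 and −1.29, and Epcam near 0 in both.

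A second list of 36 genes known from duct cells was set beside the 9, and 32 of them had enough counts. With PA, 3 passed as higher and 13 as lower in Ctr cells (median log2 fold change −0.24), and 3 as higher and 12 as lower in αGlu cells (median −0.27). Over all genes tested, 15.5% passed as higher and 14.5% as lower in Ctr cells, and 14.4% and 14.2% in αGlu cells. Among the lower ones was Bicc1, an RNA-binding protein of tubular epithelia (−0.78 ± 0.10 in Ctr, edgeR adjusted p = 1.84e-06, and −0.88 ± 0.10 in αGlu, adjusted p = 3.58e-07). The secreted Wfdc2 had −2.16 ± 0.39 in Ctr cells (adjusted p = 0.000159) and the membrane-binding Anxa2 −1.27 ± 0.22 in αGlu cells (adjusted p = 0.000102). Wfdc2 was scarce, at 1.68 CPM on average in Ctr BSA and 0.366 CPM in Ctr PA.

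Higher with PA were Pigr, the receptor that carries immunoglobulins across epithelia (0.60 ± 0.12 in Ctr, edgeR adjusted p = 0.000420, and 0.50 ± 0.12 in αGlu, adjusted p = 0.00197), and Anxa4 (0.29 ± 0.06, adjusted p = 0.000738, and 0.25 ± 0.06, adjusted p = 0.00299). The bicarbonate cotransporter Slc4a4 passed in Ctr cells (0.33 ± 0.12, adjusted p = 0.0386) and the tight junction gene Cldn7 in αGlu cells (0.29 ± 0.08, adjusted p = 0.00653). Of the 36, those of highest CPM were Clu (885 CPM) and Cldn4 (271 CPM). Clu was lower with PA in both comparisons (−0.68, adjusted p = 0.0358, and −0.73, adjusted p = 0.0264 in edgeR), while Cldn4 was at −0.21 and −0.23 and did not pass. Between batches 21 of the 32 passed as lower in batch 2 and 2 as higher (median −0.40), with Krt23 (−4.45) and the trefoil gene Tff2 (−4.43) lowest. Over all genes tested, 25.4% passed as lower in batch 2 and 26.1% as higher. Slc26a3, Aqp5, Sctr and Mmp7 did not reach the count minimum, so the receptor for secretin and a water channel were close to the limit of detection.

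Markers of other cell types were read in the same comparisons, and which of them moved differed by list. Their part in the ductal results was not tested. For the lists below, 15.5% of all genes tested passed as higher and 14.5% as lower with PA in Ctr cells. In αGlu cells these shares were 14.4% and 14.2%, and between batches 26.1% passed as higher and 25.4% as lower in batch 2. Acinar genes moved most between batches: 26 of the 27 tested passed as lower in batch 2 and 1 as higher (median −4.26), and all 27 matched genes had counts. Their summed level ranged from 4800 to 32271 CPM in batch 1 and from 424 to 1000 CPM in batch 2, led by Ctrb1 and Try5, both digestive protease genes (1452 and 833 CPM on average). With PA, 14 of the 27 passed as lower in Ctr cells and 11 in αGlu cells, and 1 as higher in each. The medians of their summed level in batch 1 were 20266 CPM in Ctr BSA and 7274 CPM in Ctr PA, and 17568 CPM and 7376 CPM in αGlu BSA and αGlu PA, while in batch 2 they were 743, 623, 835 and 612 CPM. Ctrb1 and Try5 did not pass with PA (log2 fold changes from −0.64 to −0.16).

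Genes of fibroblasts and stellate cells moved with PA and not with the batch. Of 19 tested, 15 passed as lower with PA in Ctr cells and 13 in αGlu cells (medians −1.89 and −2.14), and 0 passed between batches in edgeR. Their summed level ran from 514 to 1168 CPM over the 6 Ctr BSA libraries and from 92.4 to 335 CPM over the 6 Ctr PA libraries, with Sparc (107 CPM on average) and Vim (81.1 CPM) highest in CPM. In the αGlu groups it ran from 306 to 2050 CPM with BSA and from 50.7 to 344 CPM with PA. Sox9 is also known from cells of mesenchymal origin, and the part of such cells in its fall was not tested.

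Of 19 macrophage genes tested, 13 passed as lower with PA in Ctr cells and 1 in αGlu cells. Those of highest CPM were C1qa (86.3 CPM on average), which was at −0.02 in Ctr cells and did not pass, and Lyz2 (19.4 CPM), which fell by 3.46 on the log2 scale there. The difference between these counts is not a test, and the interaction passed for 0 genes in edgeR and in DESeq2. At an unadjusted p below 0.05, however, the interaction held 10 of the 19 in edgeR (median log2 value 1.85) and 11 in DESeq2. Over all 15916 genes tested, 332 had such a p in edgeR and 340 in DESeq2. For αGlu against Ctr, 7 of the 19 had such a p in edgeR with BSA (median −1.01) and 2 with PA (median 0.64). Over all 15916 genes tested, 461 had such a p with BSA and 538 with PA. Of 16 endothelial genes, 1 passed as lower with PA in each comparison and 6 were lower in batch 2, with Eng and Kdr (12.8 and 7.41 CPM) highest in CPM. Of 16 genes of Schwann cells and enteric glia, 1 passed as higher and 1 as lower in Ctr cells and 1 and 2 in αGlu cells, with Erbb3 and Mal (29.7 and 11.7 CPM) highest in CPM. Of 10 mesothelial genes, whose keratins overlap with those of ducts, 3 could be tested, of which 2 passed as lower with PA in each comparison and 1 as higher in αGlu cells. Their sum did not exceed 86.6 CPM in any library, most of it Msln (48.4 CPM) and Sulf1 (6.09 CPM).

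The beta-cell genes were spread the other way between batches. Those of alpha, delta and PP cells were not (median −0.32). Of 20 beta-cell genes 18 passed as higher in batch 2 and 0 as lower (median 0.45), and their summed level had a median of 107216 CPM in batch 1 and 158759 CPM in batch 2. With PA, 3 beta-cell genes passed as higher and 4 as lower in Ctr cells and 5 and 3 in αGlu cells. Of 15 genes of alpha, delta and PP cells, led by Gcg and the pancreatic polypeptide gene Ppy (618 CPM), 3 passed as higher and 3 as lower with PA in Ctr cells, 2 and 1 in αGlu cells, and 8 were lower and 2 higher in batch 2. None of the genes on these lists passed in αGlu against Ctr in edgeR, in BSA or in PA. Of the 16 genes of Schwann cells and enteric glia, however, the unadjusted p in edgeR was below 0.05 for 9 with BSA and for 11 with PA (median log2 fold changes −1.67 and −2.20), and 1 and 5 passed as lower in DESeq2. Over all 15916 genes tested, 461 and 538 had such a p in edgeR, and 8 and 30 passed in DESeq2 in either direction.

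**Figure D5:**
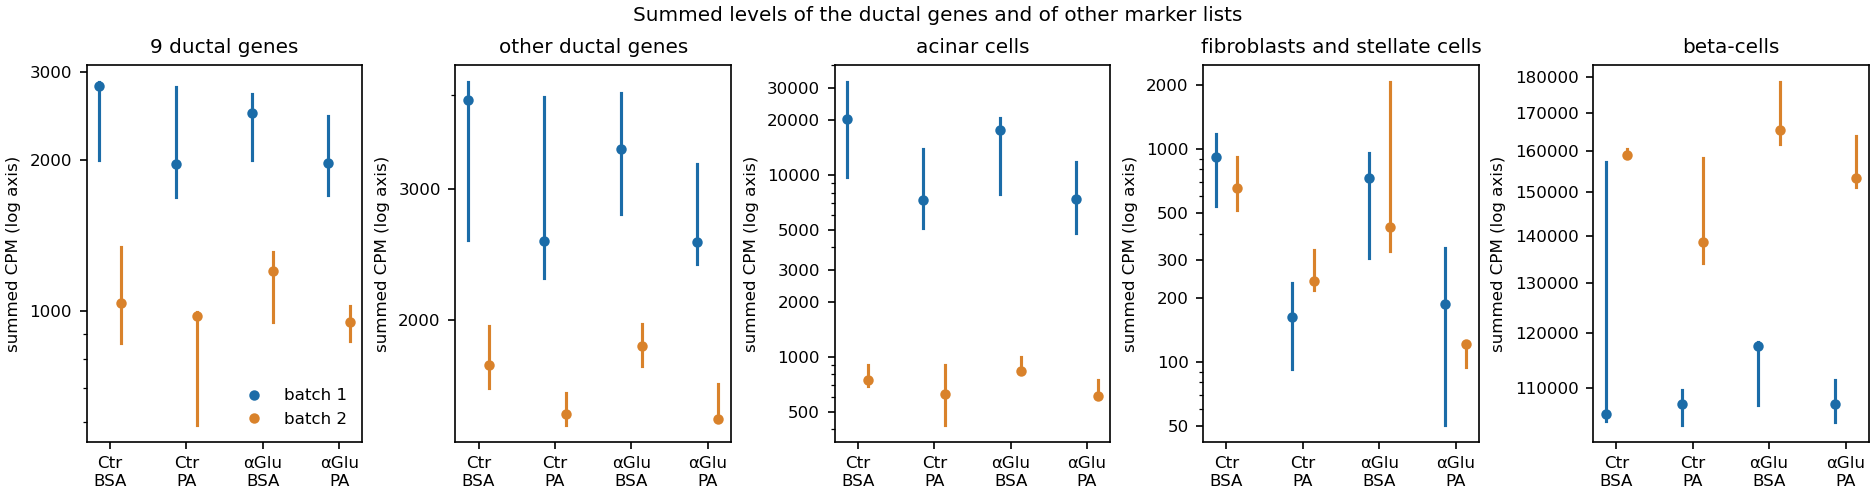
Summed CPM on log axes of the 9 ductal genes, the list of other ductal genes and those of 3 other cell types, by group and batch; the point is the median of 3 libraries and the line spans lowest to highest. The sums of the 9 ductal genes, of the other ductal genes and of the acinar genes lie lower in batch 2, and the sum of the fibroblast genes lies lower with PA.

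After the means of groups and batches were removed, the 9 genes still varied together to different degrees over the 24 libraries. Krt8 and Krt18 were the closest pair (Pearson's r of log2 CPM = 0.97), and Krt19 was closest to Krt8 (r = 0.91). Cftr, although measured by few counts, was closest to Krt19 (r = 0.82), and Epcam to Krt8 (r = 0.75). Library S23 had 0 counts of Cftr, so its log2 CPM of −3.73 was set by the prior count. It was also the lowest library for Krt19 (log2 CPM 2.00), and r without it was not computed. Krt7 was closest to Epcam (r = 0.68), ahead of Krt8 (r = 0.59) and Krt18 (r = 0.52). Spp1 and Muc1 were closest to Epcam as well (r = 0.60 and 0.50). Sox9 was closest to Muc1, at r = 0.50, and its correlations with Krt19 (0.36) and with Krt7 (−0.01) were lower. These values describe libraries that are not independent, since the study obtained all groups of a replicate from the same animal and animals were not taken out, and no p is attached to them.

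The genes outside the list that were most like the mean of the 9 by the same measure were Myh9 (r = 0.93), Csrp1 (r = 0.92), Cttn (r = 0.91), Tnfrsf12a (r = 0.90) and Fstl3 (r = 0.90), again over 24 libraries. Myh9 encodes a non-muscle myosin heavy chain, Cttn the actin-binding cortactin and Csrp1 a LIM domain protein. Tnfrsf12a is the receptor for the cytokine TWEAK and Fstl3 a secreted binder of activin. They were not selected for a role in ducts.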

How the data were processed

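Total RNA was purified from dispersed mouse islet cells with the miRNeasy micro kit, and stranded mRNA libraries were sequenced on an AVITI instrument. Reads were processed by the authors in the RNA-seq Analysis Portal of QIAGEN, version 5.1. The resulting deposited table holds raw counts of reads on exons per gene and library, and the authors also deposited TPM values, which are scaled by transcript length, and were used here to compare levels between genes. The 48 RPKM and CPM columns were not used, empty cells were read as 0, and 1 row without a gene was left out. The submitters' processing notes name GRCm38. The aligner, annotation and strand setting were not given in the sources used here.

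Counts were analysed in R 4.3.3 with edgeR 4.0.16 and limma 3.58.1. Genes were filtered by filterByExpr, scaled by TMM (trimmed mean of M values) and fitted in 1 quasi-likelihood model with a coefficient for each of the 4 groups and for batch, and p-values were adjusted by Benjamini-Hochberg over 15916 genes. An SE is the log2 fold change over the square root of its F value. Log2 CPM used a prior count of 2. Batch effects on the PA response came from a fit with 8 coefficients. The script was tested on simulated data. Alternatives were DESeq2 1.42.0, upper-quartile scaling, other filters (none, or 10 counts in 12 libraries), no batch term, fewer groups, each batch alone, a call at more than 2-fold with an unadjusted p below 0.05, and leaving out each library.

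The study speaks of 6 independent experiments and took all groups of a replicate from the same animal, but the labels tie no library to an animal. The fits therefore hold no term for the animal, and libraries of the same animal were treated as independent. Between batches this can count an animal more than once, so those p-values may be too small. They do not measure the spread between animals alone. Counting intervals and floors cover counting error only. The 9 genes and the 9 lists of other genes were chosen with earlier results of these data known. All 9 genes are named in every comparison. From the list of other ductal genes, the 3 of smallest p in each direction among those that passed with PA are named, and from each list the 2 of highest mean CPM. A gene that this rule selects is not reported here. The 5 most similar genes were taken by Pearson's r over 24 libraries. Slc26a3, Aqp5, Sctr, Mmp7, Krt23 and Tff2 were named after their values were seen. Of 192 list entries 1 was not matched to the table. Positions and exon lengths are from GENCODE vM21, promoters from RefSeq GRCm38.p6.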

Additional observations from a re-analysis of the deposited data

How the results depend on the processing

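Sox9 passed as lower with PA in both comparisons under every alternative that was run. The number of the 9 genes that passed with PA changed with the design: it was 1 in both comparisons without the batch term and under the call at more than 2-fold, 1 in Ctr and 5 in αGlu cells with only the groups compared, and 6 with both ASOs averaged, which was chosen after seeing the data. Leaving out 1 library gave 1 to 4 in Ctr and 1 to 3 in αGlu cells, 0 to 0 for αGlu against Ctr in BSA, in PA and for the interaction, and 7 to 8 between batches. The scalings, filters and DESeq2 kept the counts within 1.5 times, and 0 of the 9 genes passed for the ASO or the interaction under any alternative. Of 1755 values of single genes under alternatives, 143 differed in sign from the one reported, 0 of them past the threshold; 1 was in a PA comparison (Spp1 in Ctr cells, −0.08 with batch 1 alone) and the others were in αGlu against Ctr or the interaction. Depth limits Cftr most, at 0 to 19 counts per library in batch 2. No paired analysis was possible because the labels give each library its own number and do not say which libraries came from the same animal, so how far calls would change within animals is not known.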
